A study of Mus musculus with 2 samples.

Results

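Malat1, Neat1, Tug1 and Miat are long noncoding RNAs that stay wholly or partly in the nucleus. They were chosen by symbol and are 4 of 55536 annotated genes and of 13374 genes annotated as long noncoding. Their levels were read in total RNA from the heart of female B6CASTF1/J mice aged 10 days, in 2 libraries (replicates 1 and 2). B6CASTF1/J mice are F1 hybrids, whose mother was C57BL/6J and father CAST/EiJ by the usual naming, and no treatment is labelled. The name of the added spike-in set calls the libraries stranded and reduced in ribosomal RNA. The labels number 2 biological replicates with a heart sample each but give both a single donor record, so the spread between them may be technical in part, and there is no other group to compare them with.

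A long noncoding RNA acts as RNA and is not translated into a protein. Malat1 gathers in nuclear speckles, the bodies where splicing factors are stored. It has no ordinary poly(A) tail: ribonuclease P cuts its 3′ end, releases a tRNA-like small RNA, and leaves a U-rich and A-rich end that folds into a protective triple helix. Neat1 is made in a short polyadenylated form and a long form that shares its 5′ end and closes with the same kind of cut. The long form is the scaffold of paraspeckles, nuclear bodies that hold RNA-binding proteins. Tug1 is found in the nucleus and the cytoplasm and is transcribed away from the gene Morc2a. Miat, also called Gomafu, was named for a human association with myocardial infarction and is best known as a nuclear RNA of neurons, where its repeats bind the splicing factor SF1. Total RNA libraries keep RNAs that lack a poly(A) tail.

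The 3′ ends of Malat1 and of long Neat1 are printed because they set these RNAs apart from ordinary mRNA. The sequences are the GENCODE M21 transcripts on mm10, minus strand, written 5′ to 3′. Malat1 is bases 6592 to 6691 of Malat1-201 (chr19:5795982-5796081), and Neat1 is the last 100 bases, 20672 to 20771, of Neat1-201 (chr19:5824708-5824807). Capitals mark the exact runs of 11 or more bases that both stretches hold in the same order.
Malat1: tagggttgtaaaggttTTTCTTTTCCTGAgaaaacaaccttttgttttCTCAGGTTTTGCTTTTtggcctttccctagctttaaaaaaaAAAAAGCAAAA
Neat1: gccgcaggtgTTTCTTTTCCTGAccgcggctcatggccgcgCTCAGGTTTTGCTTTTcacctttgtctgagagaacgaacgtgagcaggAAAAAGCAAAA
The stretches share a 13-base and a 16-base U-rich run and an 11-base A-rich run. The 16-base run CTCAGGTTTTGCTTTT occurs in 2 of 141767 annotated transcripts, these same RNAs, and its reverse complement in 0 of 18930 long noncoding transcripts. TTTCTTTTCCTGA occurs in 5 and AAAAAGCAAAA in 77 of the long noncoding transcripts (0.0264% and 0.407%), and their reverse complements in 9 and 93.

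The bases that follow each A-rich run are printed because they are the tRNA-like part that is cut away. For Malat1 they are the next 58 bases of Malat1-201 (chr19:5795924-5795981). For Neat1 they are the 56-base small RNA entry Gm27702 (chr19:5824652-5824707), which adjoins the last base of Neat1-201. Capitals mark shared runs of 8 or more bases.
Malat1 tRNA-like: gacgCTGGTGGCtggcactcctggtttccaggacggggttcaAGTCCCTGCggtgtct
Gm27702: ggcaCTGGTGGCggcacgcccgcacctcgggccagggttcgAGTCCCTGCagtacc
In a global alignment 40 of 58 columns were identical (69.0%). The annotated Malat1-201 runs on for 292 bases past the A-rich run, so it holds the tRNA-like part, whereas the annotated Neat1-201 stops at the run. Gm27702 has an effective length of 0 in these tables, and it had 0 counts in both libraries by both methods.

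Replicate 1 held 40184480 and replicate 2 held 39620519 counts on annotated genes. TPM is an abundance of transcripts corrected for length, so it can be set side by side between genes. Each library was quantified by 2 methods, called RSEM and kallisto after the column names their files carry, and values are by RSEM unless kallisto is named. Heart muscle markers marked the tissue as labelled, with all 6 listed cardiomyocyte genes detected at a median of 2895 ± 149 TPM (SD over the libraries).

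Malat1 was far more abundant than the other members and ranked among the most abundant long noncoding RNAs, while Miat was barely present. Malat1 (chr19:5795690-5802672, minus strand) reached 2074 TPM in replicate 1 against 1636 TPM in replicate 2, a mean of 1855 ± 310 TPM (SD, n = 2). It ranked 4 among long noncoding genes and 20 among all nuclear protein-coding and long noncoding genes by mean TPM. The protein-coding genes next to it in level were Pln, the inhibitor of the cardiac calcium pump, at 1983 ± 118 TPM and Cox6b1, a subunit of cytochrome c oxidase, at 1756 ± 15.7 TPM. Both were picked for being nearest in level, so their likeness to Malat1 is set by that choice. These ranks and neighbours hold for RSEM: by kallisto Malat1 had 1046 and 855 TPM in replicates 1 and 2 (951 ± 135), with rank 3 among long noncoding genes.

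Neat1 (chr19:5824708-5845478, minus strand) reached 41.1 TPM in replicate 1 against 36.2 TPM in replicate 2, a mean of 38.7 ± 3.46 TPM. Its rank among long noncoding genes was 18. Its neighbours in level were Ssh2, a cofilin phosphatase, at 38.7 ± 0.728 TPM and Nutf2-ps1 at 38.7 ± 4.69 TPM. Tug1 (chr11:3639785-3649673, minus strand) stood at 30.9 and 28.9 TPM in replicates 1 and 2, a mean of 29.9 ± 1.47 TPM and rank 22. Its neighbours were Ntn1, a secreted guidance factor, at 29.9 ± 3.59 TPM and Naa50, an N-terminal acetyltransferase, at 29.9 ± 1.53 TPM. Values of the 2 hearts lay close together for both RNAs. The neighbours were picked by RSEM for being nearest in level, so their likeness is set by that choice. By kallisto Neat1 averaged 46.4 ± 2.09 TPM and Tug1 41.2 ± 2.81 TPM.

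Miat (chr5:112213228-112229395, minus strand) was the only member below 1 TPM in both libraries, at 0.26 TPM in replicate 1 against 0.06 TPM in replicate 2. These values rest on 28 and 15.63 expected counts. Neuron and Schwann cell genes, of the cell types Miat is best known from, summed to 6.99 and 2.67 TPM over 6 genes, and their part in the Miat level was not tested. The other 3 members passed the detection limit of 1 TPM in both libraries, as did 435 of the 13374 long noncoding genes.

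**Figure D1:**
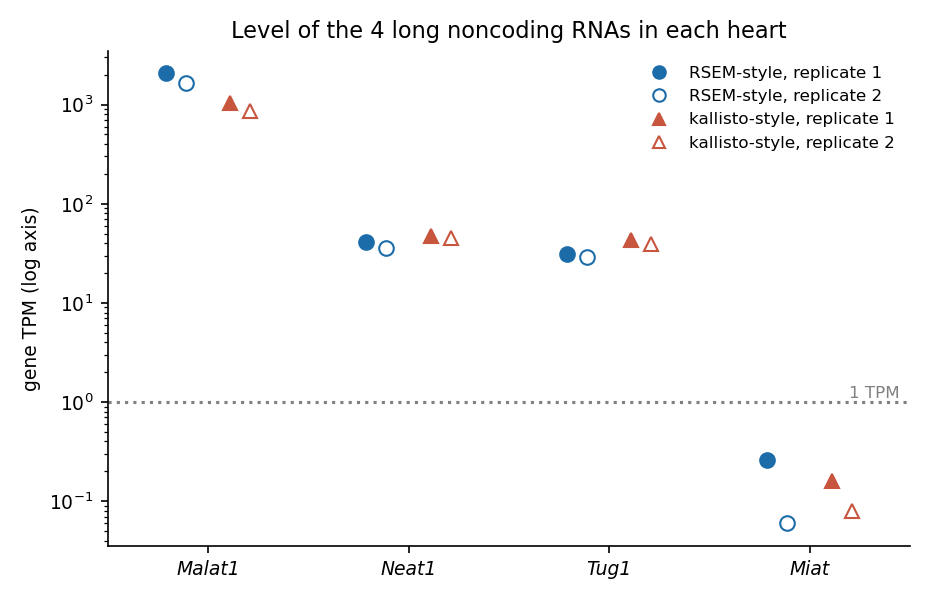
Gene TPM of the 4 RNAs on a log axis, with circles for RSEM and triangles for kallisto, filled for replicate 1 and open for replicate 2; the dotted line is the detection limit of 1 TPM. Malat1 stands at 855 TPM or more, Neat1 and Tug1 lie side by side between 28.9 and 47.8 TPM, and Miat lies below the line, by either method.

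The order of the members was Malat1, Neat1, Tug1, Miat in each heart and by each method. Within a library, the log2 ratio of TPM + 0.1 of Malat1 over Neat1 was 5.65 in replicate 1 and 5.49 in replicate 2, a 47.6-fold difference (5.57 ± 0.11), against 20.4-fold by kallisto. For Neat1 over Tug1 it was 0.41 and 0.33, a 1.29-fold difference (0.37 ± 0.058), against 1.12-fold by kallisto. For Tug1 over Miat it was 6.43 and 7.50 (6.96 ± 0.76), a value that rests on the pseudocount because Miat is so low. All 6 pairs of members lay apart by more than 3 SD, although 2 libraries cannot give an exact p under 0.5.

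In counts, Malat1 took a sizeable part of the reads of long noncoding genes. It held 189859 expected counts in replicate 1 and 153207 in replicate 2, which is 0.472% (exact 95% interval 0.470% to 0.475%) and 0.387% (0.385% to 0.389%) of the library. That was 14.3% and 10.96% of the counts of all long noncoding genes. Much of that total lay on other entries, and the Malat1 share depends on them. Gm26917 held 795529 and 804723 counts in replicates 1 and 2, and Gm42418 held 113632 and 216725. Neat1 held 6608 and 6129 counts and Tug1 3775 and 3454, or 0.498% and 0.438% (Neat1) and 0.285% and 0.247% (Tug1) of long noncoding counts. The other long noncoding genes among the 5 highest by TPM were Gm26917 (9793 ± 194 TPM), Gm42418 (3086 ± 1400 TPM), Rmrp, the RNA of ribonuclease MRP (2315 ± 12.3 TPM by RSEM but 0 TPM by kallisto in both libraries, so its place is undecided), and H19, an imprinted growth-related RNA (163 ± 13.4 TPM). Gm42418 was the uneven one, with 2095 TPM in replicate 1 against 4076 TPM in replicate 2. The origin of the reads placed on Gm26917 and Gm42418 was not tested. The Malat1 rank and share are therefore those among entries as annotated.

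The transcripts of Malat1 were divided very differently by the 2 methods. Malat1 has 4 annotated transcripts: the unspliced Malat1-201 of 6983 nt and the short spliced Malat1-202, Malat1-203 and Malat1-204 of 556, 485 and 656 nt. RSEM gave Malat1-201 170274 counts in replicate 1 and 138501 in replicate 2, and kallisto gave it 208251 and 168919. The short forms together received 19585 and 14706 counts by RSEM but 16.8 and 7.81 counts by kallisto. Because they are short, those reads made up 10.3% and 9.60% of the Malat1 counts but 61.9% and 59.9% of its RSEM TPM.

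Alone, Malat1-201 had 790 and 655 TPM in replicates 1 and 2 by RSEM, against 1044 and 854 TPM by kallisto. The gene TPM by RSEM was accordingly 1.98-fold and 1.91-fold the kallisto value (1046 and 855 TPM), while over the 12348 genes detected by both methods the median log2 ratio of RSEM over kallisto was −0.32. Every exon of the short forms lies within Malat1-201, and the last exon of Malat1-202 begins at base 6888 of Malat1-201, past the tRNA-like part. The deposited interval of the Malat1 TPM, 2004 to 2058 in replicate 1, goes with the deposited posterior mean of 2030 and lies below the TPM of 2074.

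**Figure D2:**
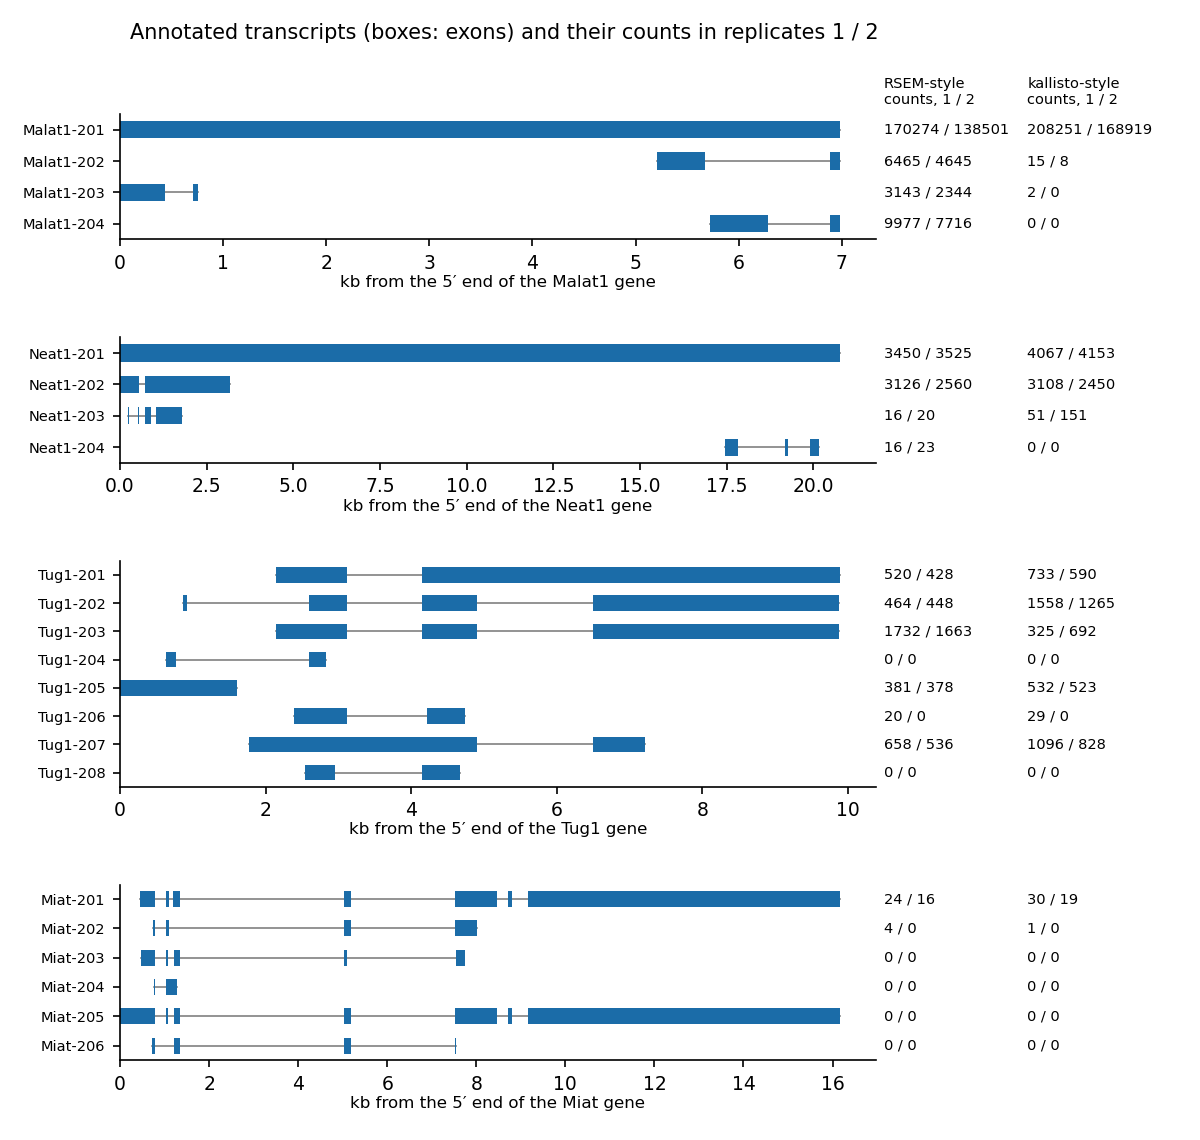
Exons (boxes) of every annotated transcript against distance in kb from the 5′ end of the gene, with RSEM and kallisto counts in replicates 1 and 2 at the right. The short spliced Malat1 forms hold 2344 to 9977 counts each by RSEM and at most 14.6 by kallisto, and Neat1-202 lies within the first part of Neat1-201.

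Short Neat1 outnumbered the long paraspeckle form in both hearts and by both methods. Neat1-202, the short form of 3004 nt, had 34.4 TPM in replicate 1 against 28.7 TPM in replicate 2. Neat1-201, the long form of 20771 nt, stood at 5.33 and 5.56 TPM, which is 14.2% ± 1.68 of the gene's TPM. The short form was thus 6.45-fold and 5.16-fold above the long form, and 5.85-fold and 4.51-fold above it by kallisto. The long form extends 17599 bases past the end of the short one, so in counts it held the larger part, 52.2% in replicate 1 and 57.5% in replicate 2.

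The scaled ratios of the short and long Neat1 forms between the hearts had opposite signs by both methods. Neat1-202 had 3126 counts in replicate 1 and 2560 in replicate 2, a log2 ratio of 0.25 after scaling (counting SE 0.038). Neat1-201 had 3450 and 3525 counts, a log2 ratio of −0.071 (counting SE 0.035). By kallisto the ratios were 0.30 (SE 0.039) and −0.076 (SE 0.032). Of 24210 transcripts at 1 TPM or more in both libraries, 13.2% differed by at least 1.5-fold, and neither Neat1 form did. In all, 11 of the 22 member transcripts passed this limit of level, and 0 of them differed by 1.5-fold. By kallisto 15.9% of 27391 transcripts differed, and among 10 member transcripts 3 did, which were Malat1-202, Neat1-203 and Tug1-203 and whose counts also differed between the methods. The spliced Neat1-203 held 1.35% and 1.98% of the gene's TPM by RSEM, against 5.06% and 16.2% by kallisto, so its share depends on the method. Both exons of Neat1-202 lie within Neat1-201, so their division is an estimate of each method. The counting SEs leave out the uncertainty of that division.

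Tug1 was spread over 5 transcripts with at least 5% of its TPM, and the methods disagreed on which led. By RSEM, Tug1-203, spliced from 3 exons, led with 35.7% in replicate 1 and 37.5% in replicate 2. By kallisto, Tug1-203 held 5.25% and 12.4%, and the unspliced Tug1-205 led with 32.1% and 34.9%. Tug1-205 is the part of the locus that reaches over the start of Morc2a, and it had 381 and 378 counts by RSEM and 532 and 523 by kallisto. Tug1-202 took 10.4% and 10.95% by RSEM, against 27.4% and 24.7% by kallisto.

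Tug1-207, which keeps the sequence between 2 of the exons of Tug1-203, held 18.1% and 16.1% by RSEM and 24.0% and 20.1% by kallisto. Tug1-201, which keeps the other such stretch, held 8.10% and 7.30% by RSEM and 8.85% and 7.91% by kallisto. These forms, unlike Tug1-203, had similar shares by either method.

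**Figure D3:**
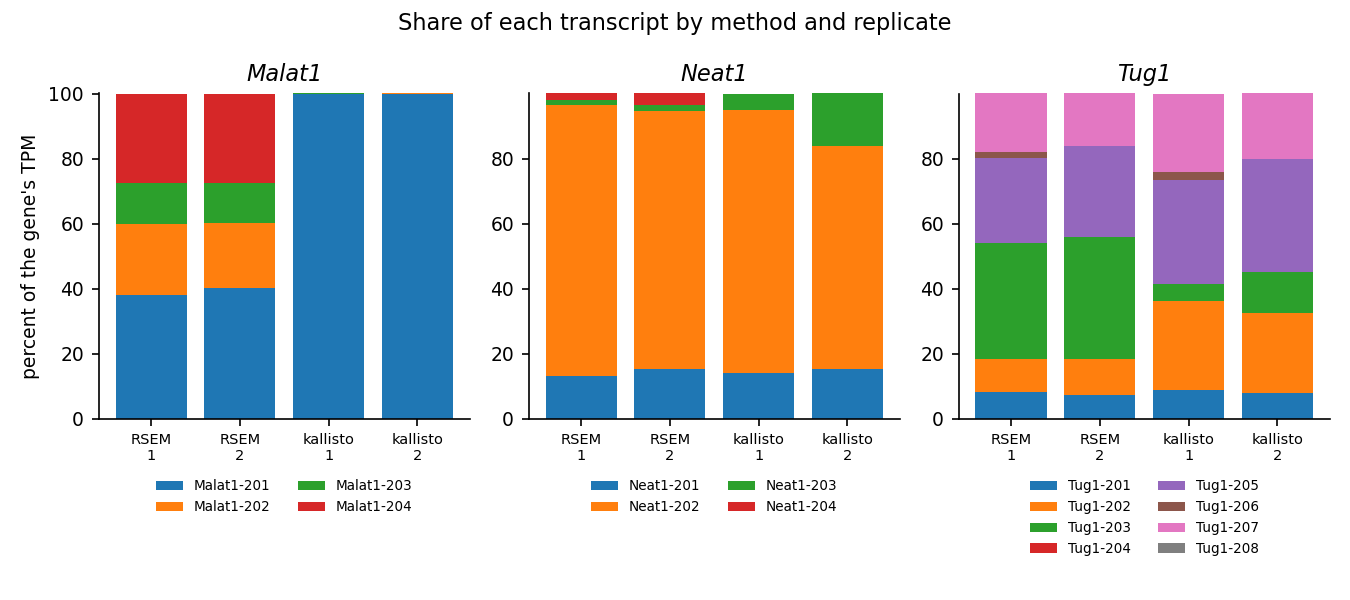
Stacked bars from 0 to 100 give the percent of each gene's TPM in each transcript, with 1 bar per method and replicate. Malat1 changes from 4 sizeable transcripts by RSEM to 99.8% Malat1-201 by kallisto, Neat1-202 leads in every bar, and the leading Tug1 transcript changes with the method.

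Most Miat reads were placed on Miat-201, a long transcript. Miat-201 of 8758 nt had 24.5 counts in replicate 1 and 15.63 in replicate 2 by RSEM, and 30.5 and 18.9 by kallisto. Miat-202, a short form, had 3.52 and 0 counts by RSEM, yet at 747 nt this made 65.8% of the gene's TPM in replicate 1. The other 4 Miat transcripts had 0 counts in both libraries by both methods. Of these, Miat-205 is longer, at 9163 nt, and shares most of its exon sequence with Miat-201. Their division is thus an estimate of each method. The repeat TACTAAC, the SF1-binding element of Miat, was searched on both strands. Miat-201 held 6 copies between bases 4538 and 5226 and 0 of the reverse complement, while Neat1-201 held 1 copy and Malat1-201 and Tug1-201 held 0. The densest 60 bases (5175 to 5234 of Miat-201, chr5:112216754-112216813, minus strand) show 3 of them in capitals.
Miat: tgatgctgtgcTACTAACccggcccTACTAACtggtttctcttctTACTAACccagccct
Of 4190 genes with a transcript of at least 5000 bases, 732 (17.5%) held TACTAAC in such a transcript and 2, Miat included, held 6 or more. TACTAAC occurred in 3.78% and its reverse complement in 3.74% of the 18930 long noncoding transcripts.

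Malat1 differed between the hearts by more than its counting error but by less than 1.5-fold. After scaling by TMM factors its log2 ratio of replicate 1 over replicate 2 was 0.27 (counting SE 0.0050), or 1.21-fold higher in replicate 1. Over 12838 genes detected in both libraries the median absolute log2 ratio was 0.098, and 14.1% of genes had a larger one than Malat1. Neat1 and Tug1 had ratios of 0.069 (SE 0.026) and 0.088 (SE 0.034), and 62.5% and 53.7% of genes lay further apart. Among detected genes at or above a member's own mean TPM, those shares were 54.7% of 1999 for Neat1 and 44.3% of 2599 for Tug1. For Malat1 the share was 15.9% of 44 genes. At a limit of 1.5-fold 2.55% of detected genes and 6.9% of the 435 detected long noncoding genes differed, and 0 of the 3 detected members did. Miat had a count ratio of 1.70 with an exact 95% interval of 0.890 to 3.37, so no difference was detectable at this depth. With 1 library per heart no test of a difference between the hearts can be made, and counting errors cover reads only.

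Some marker lists of other cell types moved between the same libraries, while none of the 5 endothelial, 5 fibroblast, 4 mural and 5 macrophage genes was past 1.5-fold. All 5 erythroid genes were past 1.5-fold lower in replicate 1, with a summed level of 5269 TPM in replicate 1 against 12984 TPM in replicate 2. All 5 atrial genes were also lower, at 516 and 953 TPM summed. The 3 detected genes of 5 brown fat and adipocyte genes were higher in replicate 1, at 64.5 and 10.1 TPM summed over the list, and no defining marker of the list was at 0. Of detected genes 1.5% were past 1.5-fold lower and 1.05% higher in replicate 1. Their part in the Malat1 difference was not tested, and in whole hearts fewer cells of a type and less RNA per cell cannot be told apart.

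**Figure D4:**
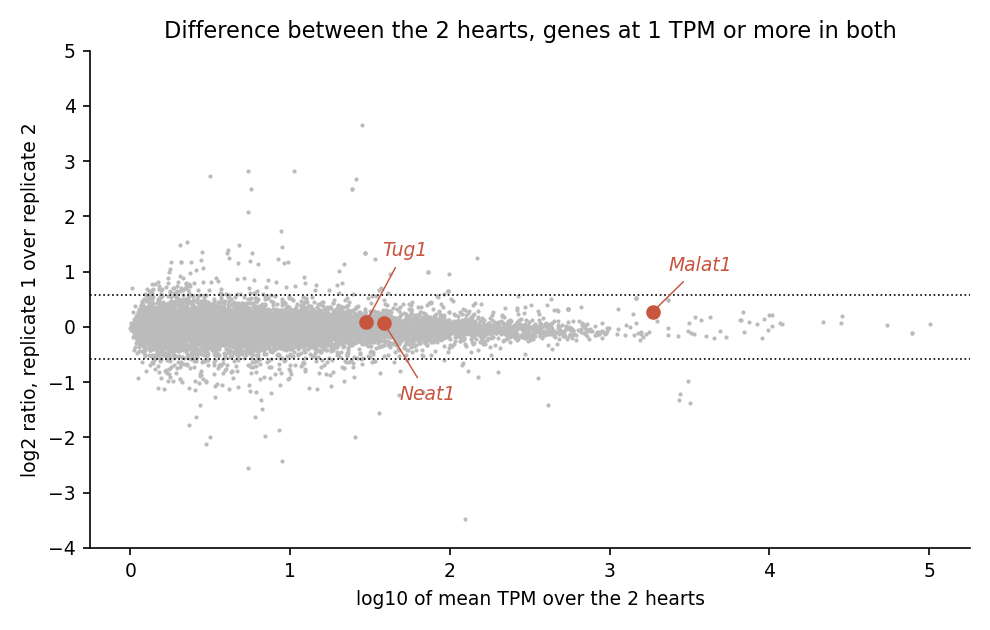
Each grey point is 1 of the 12838 detected genes, placed by the log10 of its mean TPM and by its log2 ratio of replicate 1 over replicate 2; dotted lines mark 1.5-fold. Neat1 and Tug1 lie near 0, at 0.069 and 0.088, and Malat1 lies above them at 0.27, within the lines.

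Few reads were placed on the entries opposite Malat1 and Miat. Gm37376, an entry of 453 nt on the opposite strand, lies wholly within Malat1 and had 0 counts in replicate 1 and 2 counts in replicate 2. It covers a small stretch of Malat1, and the opposite strand of the rest of that gene was not measured. Gm26953, a gene opposite Miat, had 0 counts in both. Short same-strand entries within the members (1 in Malat1, 3 in Neat1, 4 in Tug1 and 4 in Miat) drew 58.5 and 59.6 counts from the Neat1 locus and 38.1 and 48.1 from the Tug1 locus by RSEM. That was at most 1.39% of the count of Neat1 or Tug1, and by kallisto these entries had 0 counts.

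Genes beside the members were expressed at levels of their own. Morc2a, a chromatin-silencing ATPase that overlaps Tug1 by 483 bases on the opposite strand, had 14.85 TPM in replicate 1 against 12.1 TPM in replicate 2, below Tug1. Frmd8, which lies 4223 bases beyond the 5′ end of Neat1, stood at 7.86 ± 0.587 TPM. The log2 ratios between the hearts were 0.11 for Morc2a (SE 0.049) and 0.023 for Frmd8 (SE 0.079). Further from the members, Osbp2 and Smtn flank the Tug1 locus at 2.46 ± 0.0212 and 85.9 ± 0.940 TPM. Next to Miat on one side, the lens crystallin gene Cryba4 stood at 1.35 ± 0.0566 TPM. Gm26897, on the other side, lies 478653 bases away. It was listed at 0 TPM, but its effective length was 0, so no level could be read.

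Genes for proteins that work with Malat1 were all detected. All 14 nuclear speckle and Malat1-binding genes were detected, as were 12838 of all 55536 annotated genes. The list median was 60.2 ± 3.77 TPM over the libraries, against 10.4 TPM for the median detected gene. Srrm2, a scaffold of the speckles, stood at 87.8 ± 7.39 TPM, the splicing factor Srsf5 at 87.3 ± 17.5 TPM and the speckle scaffold Son at 77.5 ± 4.86 TPM. The median log2 ratio of replicate 1 over replicate 2 was 0.13 for the list and −0.0078 for all detected genes. Past 1.5-fold were 0 of the 14, against 2.55% of all detected genes. Mettl16, which binds the Malat1 triple helix in human cells, was the lowest at 6.18 ± 0.339 TPM.

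The genes of the machinery that cuts tRNA-like ends, all 13 of them detected, had a list median of 7.74 and 7.11 TPM in replicates 1 and 2. The RNA subunit gene Rpph1 had 5323 ± 428 TPM by RSEM but 2.38 and 3.82 TPM by kallisto, and these tables leave its level undecided. The ribonuclease P protein gene Rpp21 stood at 14.4 ± 0.552 TPM, the CCA-adding enzyme Trnt1 at 13.9 ± 0.276 TPM, and Elac2, the ribonuclease Z that trims the other end, at 9.20 ± 1.14 TPM. None of the 13 differed by 1.5-fold between the hearts, where 2.55% of all detected genes did.

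All 14 paraspeckle protein genes were detected, with a list median of 44.5 and 41.9 TPM. The RNA-binding protein genes Hnrnpk and Hnrnpa1 led at 311 ± 24.1 and 118 ± 13.98 TPM. Among the proteins that build the core, Sfpq stood at 62.9 ± 5.42 TPM, Nono at 51.4 ± 3.90 TPM and Pspc1 at 9.40 ± 2.63 TPM (named after their values were seen). In TPM these genes thus lay above the long Neat1 form, at 5.33 and 5.56 TPM. In the list of genes that steer the choice between Neat1 ends, 5 of 5 were detected at a median of 36.7 and 35.7 TPM, led by Hnrnpk, Tardbp (69.7 ± 4.74 TPM) and Srrt (36.2 ± 0.700 TPM). Cpsf6 and Nudt21, whose complex favours the short form, stood at 23.3 ± 2.16 and 15.5 ± 2.71 TPM. Neither list held a gene past 1.5-fold, where 2.55% of all detected genes were.

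Of the genes for proteins reported to bind Miat, 3 of 4 were detected. Over all 55536 annotated genes 12838 were, at a median of 10.4 TPM. Qk, an RNA-binding regulator of muscle splicing, stood at 211 ± 15.9 TPM, Srsf1 at 64.6 ± 0.0566 TPM and Sf1 at 44.1 ± 4.72 TPM, while the brain-enriched Celf3 was listed at 0 TPM in both hearts. Polycomb repressive complex 2, reported as a partner of Tug1, had 6 of 6 genes detected at a median of 16.4 and 16.8 TPM. Its histone-binding subunits Rbbp7 (86.1 ± 1.97 TPM) and Rbbp4 (55.5 ± 0.403 TPM) led, followed by the methyltransferase Ezh2 (16.7 ± 0.269 TPM). None of these genes differed by 1.5-fold, where 2.55% of all detected genes did.

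**Figure D5:**
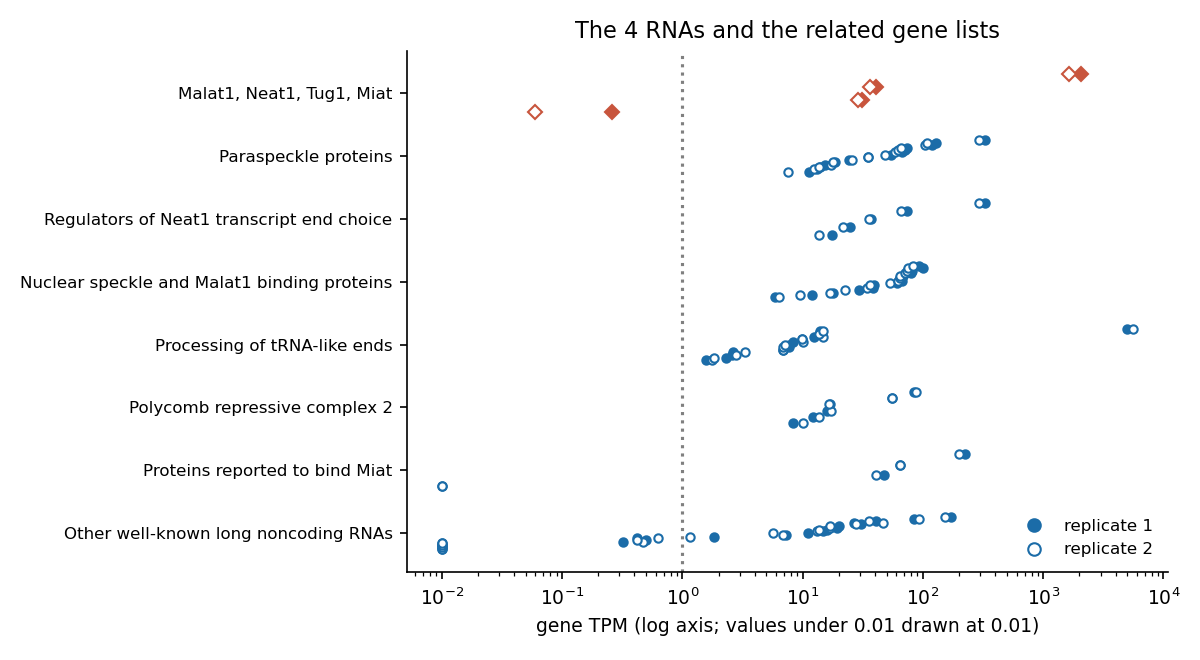
Gene TPM on a log axis for the 4 RNAs (diamonds) and for each member of 7 related lists (circles), filled for replicate 1 and open for replicate 2; the dotted line is 1 TPM. Malat1 lies to the right of every protein-coding gene shown, Neat1 and Tug1 lie within the range of the paraspeckle and speckle proteins, and Miat lies left of the line.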

How the data were processed

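Each heart gave 1 total RNA library from 300 ng of RNA, per the labels. On assembly mm10 with annotation M21, per the file headers and the text with them, the authors deposited expected counts and TPM per gene and transcript from transcriptome alignments, with, in percent, each transcript's part of its gene. The authors also deposited estimated counts and TPM per transcript made directly from reads. Interval bounds of TPM were read as a deposited signal column. The sources used here name neither tools nor versions. Column names are those of RSEM and kallisto. Length minus effective length was 99 nt by RSEM and 333 and 329 nt by kallisto in replicates 1 and 2, which changes TPM of short transcripts most. The mm10 assembly is of C57BL/6J, and parental alleles were not told apart.

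Expected counts were rounded, and entries that name no gene (26248, with 3.84 and 2.92 counts) and spike-ins were left out of library sizes. Ratios used edgeR 4.0.16 TMM factors (R 4.3.3), prior count 0.5, over genes at 1 TPM or more in both libraries; the counts were not tested, since 1 group has no contrast. The calculation of ratios was tested on simulated data. DESeq2 1.42.0 size factors were an alternative. A pair of members lay apart when its mean log2 ratio exceeded 3 SD. Intervals cover counting error only. All 141767 reference transcripts matched the files in identifier and length. The members and lists were chosen with earlier results of these data known. Named genes are the members, transcripts with 5% or more of a member's TPM, the genes next in level and position, the 5 highest long noncoding genes and, per list, the 3 highest and any past 1.5-fold; some of these are not reported here. Tables and plots were made in Python 3.11.15 (matplotlib 3.10.9, scipy 1.17.1, pandas 2.3.3, numpy 2.4.6).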

Additional observations from a re-analysis of the deposited data

How the results depend on the processing

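Of 94 values recomputed under other settings with both libraries, 59 stayed within their spread or kept their side of the rule and 35 moved, and none turned round. The members kept their order by kallisto, by counts without length scaling and with pseudocounts of 0 and 1, and each pair stayed apart by more than 3 SD there. By kallisto the mean TPM was 951 for Malat1, 46.4 for Neat1 and 41.2 for Tug1. Scaled to nuclear protein-coding and long noncoding genes, TPM was 4183, 87.1, 67.3 and 0.365 for Malat1, Neat1, Tug1 and Miat, and the posterior mean of Miat was 0.575. The Malat1 log2 ratio between replicates was 0.28 with DESeq2 size factors, 0.29 with library size only, 0.38 with spike-in totals and 0.26 with kallisto, and with spike-in totals Neat1 was at 0.18 and Tug1 at 0.20. Spike-in totals moved the median of detected genes to 0.0997, against −0.0078 with TMM. A change of scaling factors shifts the log2 ratio of every gene by the same amount. Relative to that median the members' ratios therefore keep their size by arithmetic. Genes past 1.5-fold numbered 7941 with no TPM minimum and 115 at 5 TPM, and 80 were past 2-fold, against 328. By kallisto Malat1-201 held 99.8%, Neat1-202 74.8% and Tug1-203 8.82% of the gene's TPM, and in counts long Neat1 held 54.9%. Ranks among long noncoding genes by kallisto were 3 for Malat1, 24 for Neat1, 26 for Tug1 and 3963 for Miat, and by counts 2, 9 and 13 for the first 3. List medians by kallisto were 52.5 TPM for paraspeckle proteins, 49.7 for end choice, 67.4 for speckles, 9.37 for tRNA-like ends, 23.1 for Polycomb, 64.9 for Miat binders and 14.2 for other long noncoding RNAs. Apart from the shift by scaling factors, the cause of these moves was not tested. Leaving out a replicate, which with 2 libraries only returns the other one and says nothing of stability, gave 1636 to 2074 TPM for Malat1, 36.2 to 41.1 for Neat1, 28.9 to 30.9 for Tug1, 0.06 to 0.26 for Miat and 13.0% to 15.4% for long Neat1. No paired analysis was possible because there is 1 group. Depth limits Miat, at 28 and 15.63 counts.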

Other observations

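Other well-known long noncoding RNAs were read as a list beside the members. Of 19 such genes in the tables, 12 were detected, where 435 of all 13374 long noncoding genes were. The list median was 9.03 ± 3.01 TPM over the libraries. The 2 further names of the list, Cyrano and Oip5os1, matched no symbol, so their level was not read under those names. Among the 19, H19 led at 163 ± 13.4 TPM. It was followed by 2900097C17Rik (the mouse Norad gene) at 88.4 ± 5.93 TPM and the snoRNA host Gas5 at 38.4 ± 3.57 TPM. Mhrt, a cardiac RNA transcribed opposite the myosin genes, stood at 30.8 and 27.7 TPM by RSEM, close to Tug1, but at 62.6 and 50.2 TPM by kallisto, above Tug1 at 43.2 and 39.3 TPM. The imprinted RNAs Meg3 and Rian stood at 18.4 ± 2.31 and 18.1 ± 1.52 TPM, and Hotair, Hottip and Fendrr were listed at 0 TPM in both hearts by RSEM (these 6 were named after their values were seen).

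Of the 12 detected, 2 were past 1.5-fold between the hearts, in opposite directions, where 6.9% of the 435 detected long noncoding genes were. Firre, a nuclear RNA of the X chromosome, had 11.2 TPM in replicate 1 against 5.68 TPM in replicate 2, a log2 ratio of 1.23 (counting SE 0.087). Xist, which coats the inactive X chromosome, stood at 26.7 and 46.8 TPM, a log2 ratio of −0.84 (counting SE 0.016). Both ratios exceed that of Malat1, at 0.27, and no test of a difference between the hearts can be made.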
